A study of Mus musculus with 3 samples.

Results

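The CEP family is the set of mouse genes named Cep followed by a number, most of which encode proteins of the centrosome, the pair of centrioles and surrounding material that organises microtubules. These genes were followed in RAW 264.7 cells, an established macrophage line labelled as male and of BALB/c background, after 5 h with lipopolysaccharide (LPS) at 100 ng/mL. Members were chosen by name and by a mean of at least 10 normalized counts over the 3 libraries. Of 35 protein-coding genes with such a name, 32 met the threshold, among 13877 tested features of any kind and 11611 that are protein coding. The members just inside and just outside it were Cep97, with a mean of 86.6 normalized counts, and Cep85l, the paralog of Cep85, with 7.80. Cep112 (mean 0.32) and Cep126 (listed at 0 in every library) also fell outside.

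The study compared cells carrying a control shRNA, labelled wild-type (1 library), with cells labelled GIV-depleted, which carried 1 of 2 shRNAs against GIV (Girdin, gene Ccdc88a), with 1 library for each shRNA. Every library had LPS, and untreated cells were not analysed here. The labels do not say whether the lines were pools or single clones. Throughout, 3 values in a row are normalized counts in the control, the library labelled shRNA 1 and the library labelled shRNA 2, in that order. Ccdc88a, the targeted gene, had 2580, 1734 and 2561, a mean log2 difference of -0.29 (SE 0.28, adjusted p = 0.85 in limma). The transcript was thus lower in the library labelled shRNA 1 and at the control's level in the one labelled shRNA 2. That second value goes against the label, and every statement on both GIV libraries rests in part on it.

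A centrosome holds an older and a younger centriole. Each seeds a single new centriole per cell cycle under the kinase Plk4, and the older one carries appendages that anchor microtubules and dock the membrane when a cell builds a primary cilium. In cells of the macrophage lineage the centrosome orients microtubules for migration, secretion and phagocytosis. The roles given below were worked out mainly in human cell lines and other vertebrate cells and are background, not results of these libraries.

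Per library the normalized counts summed to between 4.73e+07 and 4.98e+07. The most frequent low value above 0, taken as the worth of 1 read, was 0.931, 1.11 and 0.966. By that measure, 4 members with a mean under 200 normalized counts (Cep170b, Cep72, Cep97 and Cep131) rested on roughly 39 to 253 reads per library. All 8 macrophage markers examined were present, with sums of 4.53e+05, 3.44e+05 and 3.66e+05, higher in the control. The 6 epithelial markers summed to 0, 4.45 and 0, the 6 fibroblast markers to at most 14.9 and the 6 lymphocyte markers to at most 28.9. The control had a higher share of mitochondrially encoded transcripts, 1.43% of its total against 0.995% and 1.14%, and the part of this and of the marker sums in the differences below was not tested.

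As a family, CEP transcripts were more often above the control than below it. Together the 32 members summed to 32360, 39554 and 39646 normalized counts. Fewer cells of a type and less RNA per cell cannot be told apart in such bulk samples. A value above the control in both GIV libraries was found for 18 of 32 members, against 34.9% of all tested features and 36.3% of protein-coding ones. Below the control in both were 0 of 32 members, against 35.2% of all tested features and 34.2% of protein-coding ones. The remaining 14 members lay above the control in 1 library and below it in the other. Because both differences share the single control library, these counts describe 3 libraries and carry no test. On the log2(value + 1) scale the members' median differences were 0.19 (shRNA 1) and 0.23 (shRNA 2), where all tested features had 0.00052 and -0.0021. The median of the members' mean differences was 0.13, and it averages libraries in which those 14 members went opposite ways.

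**Figure D1:**
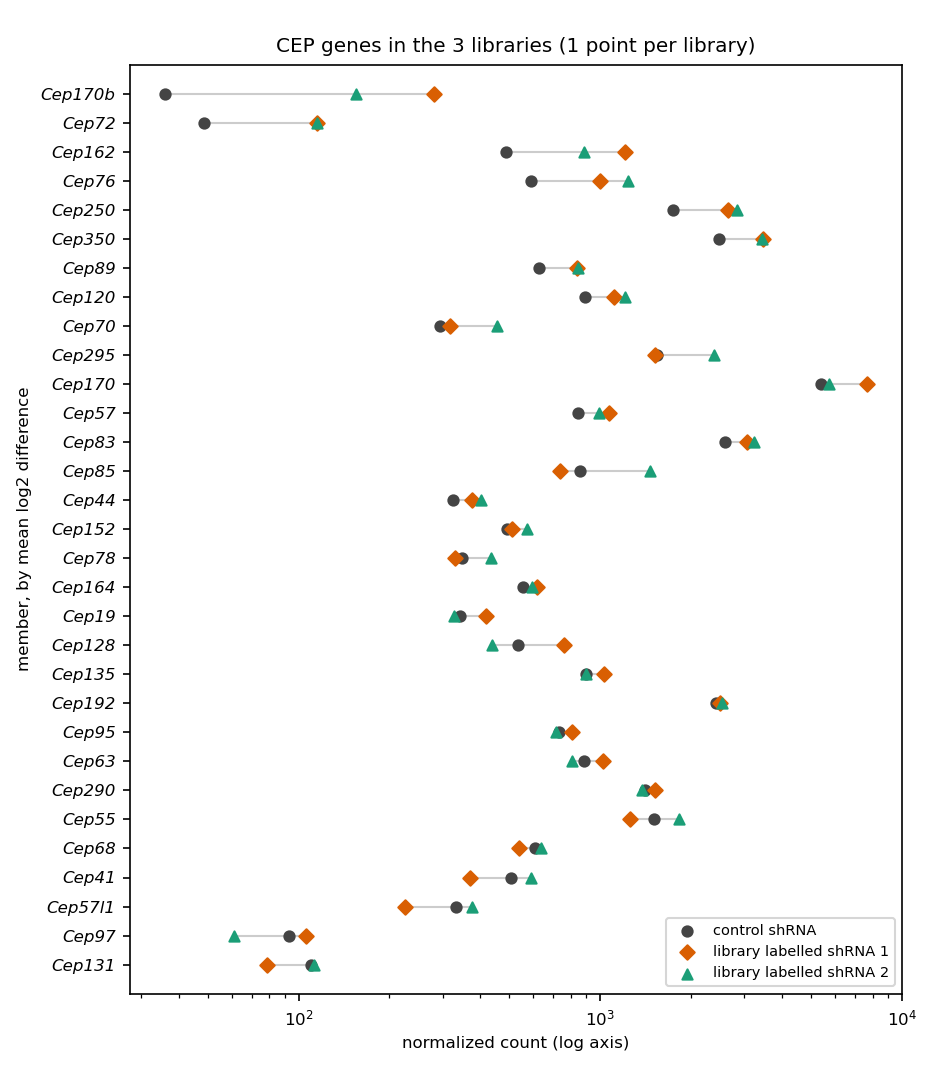
Normalized count (log axis) of each CEP gene reported here, with 1 point for each of the 3 libraries and genes ordered by their mean log2 difference from the control. Cep170b, Cep72, Cep162, Cep76 and Cep250, at the top, have both GIV libraries to the right of the control by at least 1.5-fold.

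No member passed an adjusted p of 0.05 in limma, fitted over all 13877 features, of which 0 (0%) passed. The lowest adjusted p among members was 0.44, for Cep170b. At an unadjusted p under 0.05 there were 6 of 32 members higher, against 4.52% of all tested features, and 0 lower, against 2.42%. These 6 were Cep170b, Cep72, Cep162, Cep76, Cep250 and Cep350. By size alone, at least 1.5-fold, 5 members were higher with shRNA 1 (8.83% of all features) and 0 were lower (7.85%). In the library labelled shRNA 2, 8 were higher (9.99%) and 1, Cep97, was lower (7.19%). The same 5 members exceeded 1.5-fold in both GIV libraries, against 5.09% of features.

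Cep170b, the paralog of Cep170, had the largest difference of the family (chromosome 12, 112720455 to 112746592, GRCm38). It had 36.1, 281 and 155 normalized counts, which are ratios to the control of 7.79 and 4.30. The GIV libraries lay far above the control and also differed from each other, by -0.85 on the log2 scale for shRNA 2 minus shRNA 1. Limma gave a mean log2 difference of 2.50 (SE 0.48), with an unadjusted p of 0.0062 and an adjusted p of 0.44. Per kilobase of its longest transcript it was the lowest member in the control, at 5.44 normalized counts, and reached 42.4 and 23.4 in the GIV libraries. Cep170 itself, a microtubule-binding protein of the subdistal appendages, had the highest mean level per kilobase, with 776, 1101 and 826, although Cep83 was higher in the library labelled shRNA 2, at 891 per kilobase. In normalized counts Cep170 had 5410, 7669 and 5755, log2 differences of 0.50 and 0.09 with a mean of 0.30 (SE 0.22).

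Cep72, a centriolar satellite protein (chromosome 13, 74036500 to 74062299), had 48.6, 115 and 115 normalized counts. Its values in the GIV libraries were nearly equal and 2.38 and 2.37 times the control (mean log2 difference 1.23, SE 0.33, adjusted p = 0.62 in limma). Cep162, which promotes assembly of the ciliary transition zone (chromosome 9, 87189577 to 87255536), had 486, 1209 and 884. It was 2.49 and 1.82 times the control, with the higher value in the library labelled shRNA 1 (mean log2 difference 1.09, SE 0.26, adjusted p = 0.55). Cep250, also called C-Nap1, anchors the fibre that links the parent centrioles (chromosome 2, 155956458 to 155998900). It had 1744, 2662 and 2842, close together in the GIV libraries and 1.53 and 1.63 times the control (mean log2 difference 0.66, SE 0.14, adjusted p = 0.50).

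Upstream sequence is shown for the 3 members with the largest differences, from RefSeq windows of GRCm38.p6, and for Cep55, whose mean difference was nearest 0. Each line holds the 250 bases before the annotated start, 5′ to 3′ on the gene's strand, with letters in capitals where a searched motif lies on either strand. The windows are chr12:112721924-112722173 (plus strand), chr13:74062286-74062535 (minus), chr9:87255533-87255782 (minus) and chr19:38054791-38055040 (plus). The Cep170b window lies inside the gene span given above, so it precedes a start within the gene.
Cep170b upstream: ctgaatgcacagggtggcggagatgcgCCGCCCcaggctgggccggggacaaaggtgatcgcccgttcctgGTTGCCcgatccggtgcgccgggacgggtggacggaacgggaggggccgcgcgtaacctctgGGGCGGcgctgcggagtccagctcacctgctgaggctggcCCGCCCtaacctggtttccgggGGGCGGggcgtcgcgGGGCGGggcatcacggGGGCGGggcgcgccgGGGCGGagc
Cep72 upstream: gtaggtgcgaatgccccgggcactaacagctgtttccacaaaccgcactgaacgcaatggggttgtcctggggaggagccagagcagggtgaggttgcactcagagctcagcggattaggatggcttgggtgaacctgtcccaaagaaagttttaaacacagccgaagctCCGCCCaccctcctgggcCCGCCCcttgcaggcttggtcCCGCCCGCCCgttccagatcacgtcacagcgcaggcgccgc
Cep162 upstream: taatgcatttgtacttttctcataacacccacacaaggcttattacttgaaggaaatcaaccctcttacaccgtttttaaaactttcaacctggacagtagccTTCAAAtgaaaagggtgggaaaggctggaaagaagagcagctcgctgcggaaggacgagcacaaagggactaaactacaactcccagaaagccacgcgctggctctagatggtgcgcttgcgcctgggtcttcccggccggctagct
Cep55 upstream: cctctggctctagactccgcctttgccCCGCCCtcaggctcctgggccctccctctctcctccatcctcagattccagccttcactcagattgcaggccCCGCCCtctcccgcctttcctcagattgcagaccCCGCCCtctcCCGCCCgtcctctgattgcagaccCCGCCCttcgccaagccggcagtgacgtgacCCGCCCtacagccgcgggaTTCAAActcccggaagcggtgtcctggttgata

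The motifs searched on both strands were the CCAAT box (its letters are its name), the CHR element of cell-cycle promoters (TTTGAA), the GC box (GGGCGG), TTTNNCGC (an E2F-like motif, N being any base), TGANTCA (AP-1) and GTTGCC (a partial X-box). A window was found for 27 of the 32 members, as 31 windows, and not for the other 5. In the windows shown, Cep170b held 7 GC boxes and 1 partial X-box, Cep72 held 4 GC boxes, Cep162 held 1 CHR element and no GC box, and Cep55 held 6 GC boxes and 1 CHR element. The upstream bases were 76.0%, 62.0%, 49.2% and 65.2% G or C. Another Cep55 window, chr19:38054734-38054983 (plus strand), is not shown and held 6 GC boxes and 0 CHR elements. No searched motif stood in all 3 of the windows of Cep170b, Cep72 and Cep162. GC boxes stood in 58.1% of the members' windows and in 32.7% of all 32851 windows, and CCAAT in 45.2% and 33.8%. The CHR element stood in 19.4% and 16.0%, the E2F-like motif in 12.9% and 4.28%, the partial X-box in 12.9% and 10.4%, and AP-1 in 0 of 31 windows and 6.75%. The median GC content upstream was 62.0% for the members and 52.4% for all windows, and these matches are a description of letters in windows.

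Among genes of centriole duplication, 7 of 13 members were above the control in both GIV libraries and 0 below in both, against 34.9% and 35.2% of all tested features. With the trend of length and GC content (described below) removed, 4 were above and 1 below, against 34.0% and 34.3% of protein-coding genes. Cep76, which restrains centrioles from duplicating again in the same cycle (chromosome 18, 67617800 to 67641336), had 588, 995 and 1241. Here the library labelled shRNA 2 was the higher one, and the mean log2 difference was 0.92 (SE 0.21, adjusted p = 0.54 in limma). Cep63 and Cep152, partners that place Plk4 on the parent centriole, had 882, 1025 and 806, and 491, 511 and 574. For both genes the mean log2 difference was smaller than its standard error (0.04, SE 0.22, and 0.14, SE 0.21). Cep192, a scaffold of the pericentriolar material, had 2413, 2489 and 2536 normalized counts (mean log2 difference 0.06, SE 0.13). Cep57, part of the ring that Cep63 and Cep152 form, had 843, 1066 and 993, above the control in both. Its paralog Cep57l1 had 332, 225 and 375, on either side of the control (mean log2 difference -0.19, SE 0.39). Cep85, a binding partner of the centriole assembly factor Stil, had the largest gap between the GIV libraries, with 860, 738 and 1457. Its mean log2 difference of 0.27 had an SE of 0.45, and its paralog Cep85l, below the threshold, had 10.2, 4.43 and 8.74 normalized counts. Cep295, required to convert a new centriole into a centrosome, showed a similar order, with 1547, 1521 and 2389 (mean log2 difference 0.30, SE 0.31). Cep44, with a related role, had 326, 376 and 402.

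Of the remaining duplication and elongation genes, Cep120, which elongates centrioles, had 892, 1111 and 1205 and was higher in both GIV libraries (mean log2 difference 0.38, SE 0.17, adjusted p = 0.73 in limma). Cep135, which joins the cartwheel to the centriole wall, had 896, 1030 and 899. Cep78 had 348, 331 and 436. Neither Cep135 nor Cep78 stood clear of the control in both libraries. Cep97, which caps the centriole together with Ccp110, was the only member at least 1.5-fold lower in any library on the deposited scale, with 93.1, 106 and 61.3 normalized counts. Its lowest value was in the library labelled shRNA 2, about 63 reads, and the mean log2 difference was -0.21 (SE 0.47). Cep97 no longer passed the 1.5-fold rule with a pseudocount of 5, with equal library totals or with the length trend removed.

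Genes of the mother centriole and its appendages were above the control in both libraries for 6 of 8 members, against 34.9% of all tested features. The count was again 6 with the trend removed, against 34.0% of protein-coding genes. Cep350, a large mother-centriole protein, had 2471, 3473 and 3444, nearly equal in the GIV libraries and 1.41 and 1.39 times the control (mean log2 difference 0.48, SE 0.13, adjusted p = 0.62 in limma). Cep83, Cep89 and Cep164 are 3 proteins of the distal appendages, through which the centriole docks to membrane. Cep83 had 2587, 3059 and 3244, Cep89 had 625, 836 and 847, and Cep164 had 556, 619 and 593. All 3 genes had both GIV libraries above the control, with mean log2 differences of 0.28 (SE 0.13), 0.43 (SE 0.17) and 0.12 (SE 0.19). Cep128, of the subdistal appendages, went opposite ways, with 535, 761 and 437. Cep19, a partner of Cep350, had 342, 418 and 328, on either side of the control (log2 differences of 0.29 with shRNA 1 and -0.057 with shRNA 2).

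The cilium-related members Cep290 and Cep41 had mean differences smaller than their standard errors. Cep290, a gatekeeper of the transition zone, had 1406, 1523 and 1372. Its mean log2 difference was 0.04 (SE 0.16) and turned to -0.011 with quantile normalization. Cep41, which takes part in tubulin glutamylation, had 505, 371 and 589, with the GIV libraries on either side of the control (mean log2 difference -0.11, SE 0.35). The linker protein Cep68 had 608, 537 and 636, and the satellite protein Cep131 had 110, 78.8 and 113. Both had the lowest value in the library labelled shRNA 1, with mean log2 differences of -0.06 (SE 0.21) and -0.22 (SE 0.38). Cep70, which binds gamma-tubulin, had 294, 319 and 454 (mean log2 difference 0.37, SE 0.31), and Cep95 had 730, 806 and 716.

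**Figure D2:**
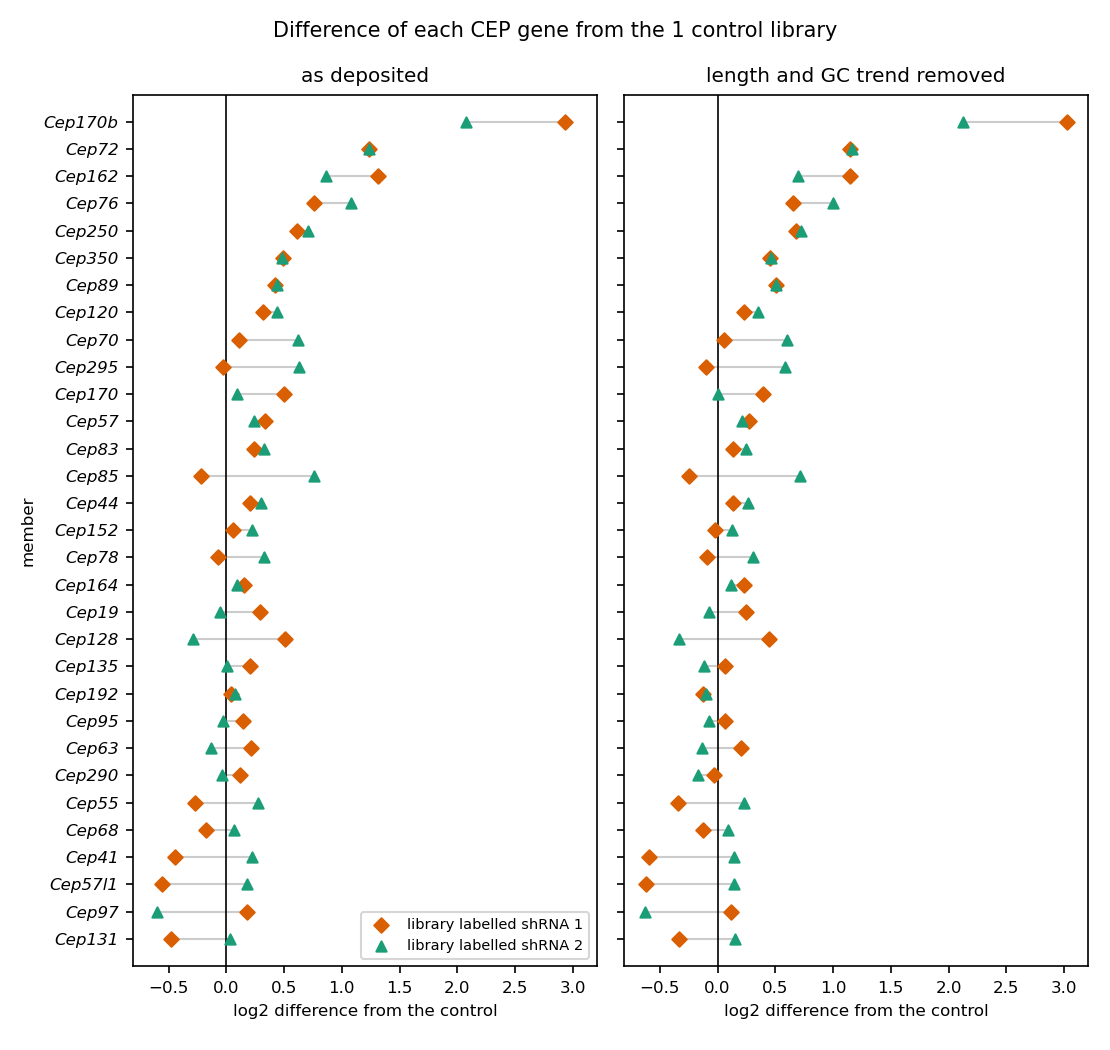
Log2 difference of each CEP gene reported here from the single control library, with a diamond for the library labelled shRNA 1 and a triangle for the library labelled shRNA 2, before (left) and after (right) removal of the trend with transcript length and GC content. The top 8 genes lie right of 0 in both libraries in both panels, and Cep192 moves from just right of 0 to just left of it.

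Differences from the control varied with transcript length and GC content over all protein-coding genes, and CEP genes differ from the others in both properties. Their longest transcripts had a median of 4367 bases, against 3114 for protein-coding tested genes, and their median GC content was 46.0%, against 50.5%. Over the 11611 protein-coding genes, Spearman's rho across genes between the difference and the longest transcript was 0.21 and 0.20 for the libraries labelled shRNA 1 and shRNA 2. With GC content rho was -0.26 and -0.19. Genes are not independent replicates, and both differences share the control. Within the 32 members rho with length was 0.24 and -0.015, and with GC content 0.022 and 0.047.

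**Figure D3:**
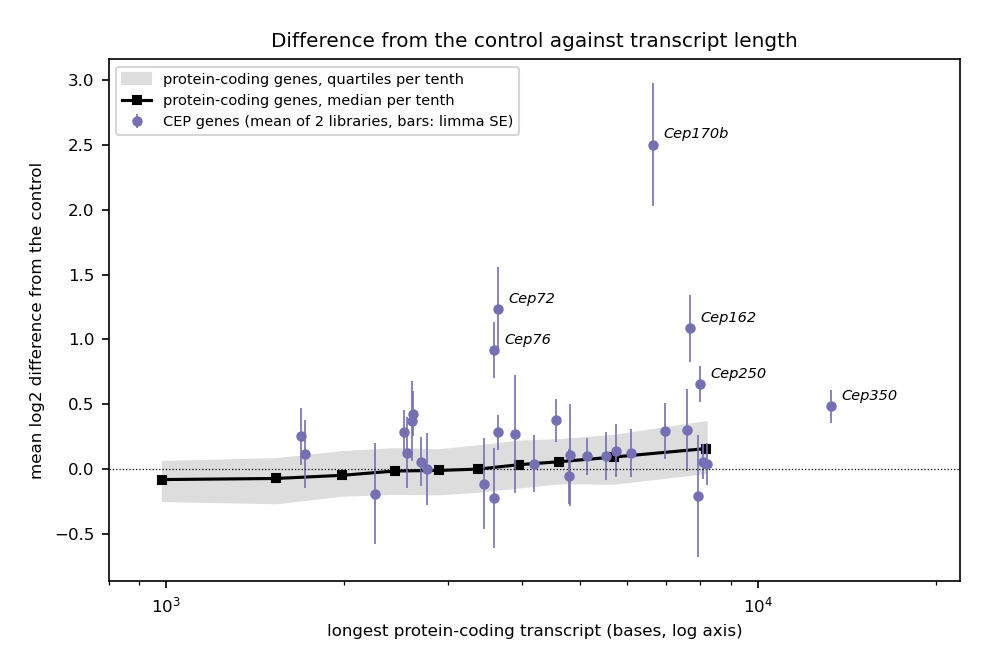
Mean log2 difference from the control against the longest protein-coding transcript in bases (log axis), for the 32 CEP genes (points, bars are limma's SE) and for 11611 protein-coding genes binned by length (squares, median of each of 10 bins, with quartiles shaded). The bins' median runs from -0.080 for the shortest to 0.16 for the longest. Cep170b, Cep72, Cep76, Cep162 and Cep250 lie above the shaded band, as do Cep89 and several other members with smaller differences. Cep350, at 13307 bases, lies beyond the band's right end at 8181 bases.

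When the trend with both properties was removed from protein-coding genes, the median amount subtracted from members was 0.065 (shRNA 1) and 0.041 (shRNA 2). This removal used each gene's median transcript length, and over protein-coding genes it left a rho of 0.11 and 0.093 with the longest transcript. Members above the control in both libraries then numbered 15 of 32, against 34.0% of protein-coding genes, and members below in both numbered 2, against 34.3%. The 2 below were Cep192 and Cep290. The members' medians were then 0.13 (shRNA 1) and 0.18 (shRNA 2), where protein-coding genes had 0.00020 and -0.0025. In the library labelled shRNA 1, 2 members (Cep41 and Cep57l1) became at least 1.5-fold lower than the control, against 617 of 11611 protein-coding genes. At least 1.5-fold higher in both libraries were again 5 members, against 4.55% of protein-coding genes, and these were Cep170b, Cep72, Cep162, Cep76 and Cep250 as before. Their mean log2 differences with the trend removed were 2.57, 1.15, 0.92, 0.83 and 0.70. The value of Cep350, whose coding transcripts have a median of 1346 bases and a maximum of 13307, depended on which length was used. Its mean log2 difference was 0.46 with the median length and 0.22 with the longest.

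Genes of the same structures that are not named Cep were examined as 3 lists. Of 55 other centrosome genes, 29 were above the control in both GIV libraries (34.9% of all tested features) and 11 below in both (35.2%). At an unadjusted p under 0.05, 6 were higher (4.52%) and 0 lower (2.42%), and 0 passed the adjusted p in limma. With equal library totals 29 were above (5127 of 13877 tested features) and 6 below (4536). With the length and GC trend removed 26 were above (34.0% of protein-coding genes) and 11 below (34.3%). Then 4 were higher at an unadjusted p under 0.05 in limma (525 of 11611 protein-coding genes). With the longest transcript in the trend there were 3 (496 of 11611). Their median log2 differences were 0.065 (shRNA 1) and 0.16 (shRNA 2). With the trend removed these were 0.0085 and 0.12, and -0.032 and 0.13 with the longest transcript. The largest single differences were those of Mphosph9, a centriolar protein (339, 626 and 865 normalized counts), Haus8, an augmin subunit (607, 949 and 1134), and Akap9, a scaffold of the centrosome and Golgi (1917, 3035 and 2838). The lowest were Fbf1, of the distal appendages (914, 681 and 713), Mzt2, of the gamma-tubulin ring (258, 216 and 214), and Haus5 (506, 335 and 534). All of the first 3 were above the control in both libraries, and Fbf1 and Mzt2 below it in both. In this list stand Fgfr1op and Fopnl, which RefSeq names Cep43 and Cep20 and which the symbols used here left out of the family. They had 1173, 1458 and 1339, and 865, 828 and 773.

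Of 44 cilium genes, 18 were above the control in both libraries (34.9% of all tested features) and 17 below in both (35.2%), with medians of 0.070 and -0.0069. At an unadjusted p under 0.05, 5 were higher (4.52%) and 0 lower (2.42%), and 0 passed the adjusted p in limma. The list held large differences in single genes. Ift80, an intraflagellar transport protein, had 284, 1272 and 802 normalized counts (mean log2 difference 1.83, SE 0.34, adjusted p = 0.42 in limma), and Rpgrip1l, of the transition zone, had 354, 854 and 636. Both were highest in the library labelled shRNA 1. By comparison, Ift172 (1370, 1035 and 838), Tmem67 (1770, 1383 and 1183) and Tctn1 (404, 295 and 316) were below the control in both.

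The GIV libraries were also set against each other, a contrast that does not use the control and has 1 library per shRNA, hence no test. By at least 1.5-fold, 4 of 32 members were higher in the library labelled shRNA 2 than in that labelled shRNA 1 (8.96% of all tested features) and 3 were lower (6.54%). The 4 higher were Cep85, Cep57l1, Cep41 and Cep295, and the 3 lower were Cep170b, Cep128 and Cep97. The median difference between these libraries was 0.023 for the members, with 17 above 0 and 15 below. All 13877 tested features had a median of -0.0028, with 6863 above 0 and 7001 below. With equal library totals the members' median was 0.094, with 20 above and 12 below. All tested features then had 0.068, with 8311 above and 5553 below. Mitosis genes differed in a single direction, with 27 of 27 higher in the library labelled shRNA 2 (6863 of 13877 tested features) and a median of 0.48. The mitosis genes' median differences from the control were -0.21 and 0.25. Above it in both libraries were 3 genes (34.9% of all tested features) and below it in both 2 (35.2%). In limma 0 passed the adjusted p, and at an unadjusted p under 0.05 there were 0 higher (4.52%) and 0 lower (2.42%). The highest mean differences were those of the kinetochore protein Cenpf (1212, 1346 and 4754 normalized counts), the proliferation marker Mki67 (7574, 7548 and 10703) and Nusap1, a spindle protein (1763, 1586 and 2566). The lowest were those of Prc1, of the central spindle (3370, 1811 and 3964), Cenpa, the centromeric histone (3210, 2257 and 2937), and the cyclin Ccnb2 (1822, 1348 and 1680). Cep55, which acts in the final cut between daughter cells, had 1510, 1254 and 1826, below the control with shRNA 1 and above it with shRNA 2 (mean log2 difference 0.0022, SE 0.28, and -0.021 with quantile normalization). The part of the mitosis genes' shift in the members' differences was not tested.

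**Figure D4:**
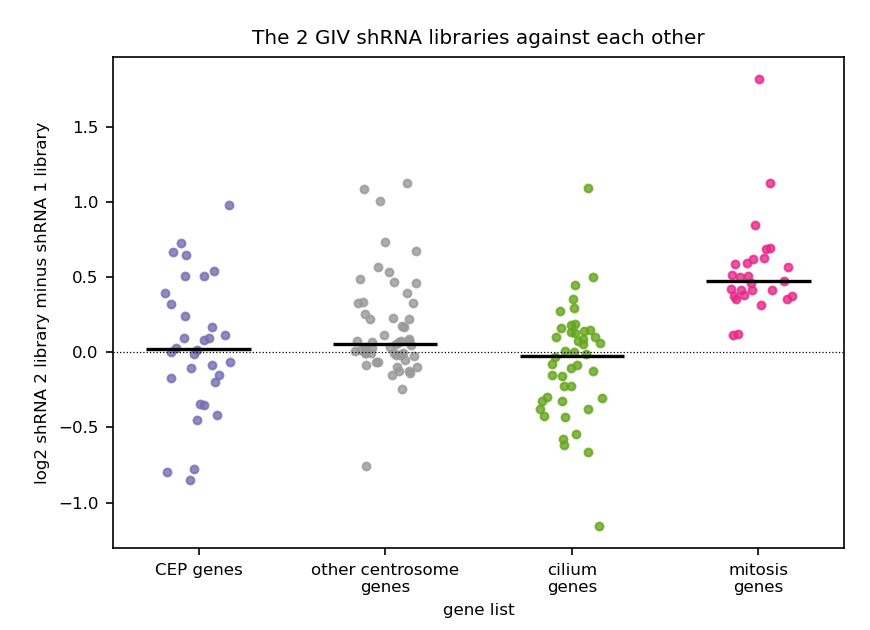
Log2 difference of the library labelled shRNA 2 minus that labelled shRNA 1 for 32 CEP genes, 55 other centrosome genes, 44 cilium genes and 27 mitosis genes (1 point per gene, bar at the median, no replicates). CEP genes spread to both sides of 0 with a median of 0.023, and all 27 mitosis genes lie above 0.

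An overlap with a tested feature on the opposite strand was annotated for 5 members. These are Cep250, Cep290, Cep295, Cep57l1 and Cep63, and the overlapping features with the highest means are Taf1d at Cep295 (5284, 6342 and 6528), 4930430F08Rik at Cep290 (531, 609 and 606) and Anapc13 at Cep63 (492, 557 and 463). The library kit marks strand, but no label states the strand setting of the counting, so reads of these pairs may not be fully told apart. No member overlaps a tested feature on its own strand. The genes named above from either end of each list were also searched. Of these, Haus8, Akap9, Tmem67, Tctn1, Nusap1 and Prc1 overlap a tested feature on the opposite strand and Haus5 one on its own. Other genes named above, such as Ccdc88a, Fgfr1op and Fopnl, were not searched for overlaps.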

How the data were processed

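RNA was measured with a stranded mRNA kit in 3 libraries, 1 with a control shRNA and 2 labelled GIV-depleted, per the labels' protocols. The authors deposited normalized counts per gene, a non-negative signal rather than raw counts, so no count model was used. The submitters' processing notes list Salmon, DESeq, DESeq2 and GRCm38 and give no version or role for them. Rescaling by the median of ratios changed none of the counts given here.

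Identifiers were matched without version to GENCODE M21 (54097 matched, 234 not), which gave symbols, positions, transcript lengths and GC content. Features with a mean of at least 10 were put on the log2(value + 1) scale, which understates the change of low genes, and fitted with limma 3.58.1 in R 4.3.3 (empirical Bayes, variance following the mean). Tests were two-sided and Benjamini-Hochberg adjusted over 13877 features. The 1 residual degree of freedom per gene came from the GIV libraries, which the single control was taken to match in spread. Nothing says that libraries came from separate cultures, so p-values do not measure a spread between cultures. They rest on the spread between the GIV libraries, which carried different shRNAs, drawn toward the variance trend over all features.

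The trend was fitted to each library's difference over protein-coding genes with natural splines (4 degrees of freedom each) of log2 median transcript length and GC content, keeping the mean. Levels per kilobase use the longest coding transcript. The fit and the trend removal were tested on simulated data. Members and lists were chosen with earlier results of these data known. Genes given in full were the 8 members with the largest and the 8 with the smallest mean difference, those past 1.5-fold and related pairs, and the 3 genes at either end of each list, except that 1 member and 1 list gene are counted but not reported here by name. Upstream sequences are RefSeq's. Alternatives covered the pseudocount, filter, scaling, trend, variance trend, fold rule and leaving out each GIV library.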

Additional observations from a re-analysis of the deposited data

How the results depend on the processing

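No member passed the adjusted p in limma under any of the 12 alternatives fitted, and 4 to 7 members were higher at an unadjusted p under 0.05. The 4, with no filter on low values, stood beside 1012 of 23815 tested features. The 7, with the length and GC trend removed, stood beside 525 of 11611 protein-coding genes. Members above the control in both libraries numbered 14 to 20. The 20, with equal totals, stood beside 5127 of 13877 tested features. The 14 stood beside 4168 of 11611 protein-coding genes with the length trend removed, and beside 4010 with the longest transcript in the length and GC trend. Members below in both, 0 as reported, were 1 with quantile normalization (5269 of 13877 tested features) and 1 with the length trend removed (3929 of 11611 protein-coding genes). They were 2 with the length and GC trend removed (3987 of 11611) and 3 with the longest transcript in that trend (3839 of 11611). With a fold rule looser than the one used above, 10 members were higher with shRNA 1 and 13 with shRNA 2. With a rule of 2 there were 3 and 3, of which 2 in both. The share of all tested features passing these other rules was not computed. These counts therefore show only how the members' numbers move with the rule, and do not set members apart from other genes. Without the library labelled shRNA 1 the members' median was 0.23 and the cilium genes' -0.0069, and without that labelled shRNA 2 they were 0.19 and 0.070. Several single members whose GIV libraries lay on either side of the control also changed sign there. Other centrosome genes below in both fell to 6 with equal totals (4536 of 13877 tested features). Mitosis genes above in both numbered 1 with the GC trend removed (3922 of 11611 protein-coding genes). With the longest transcript in the trend 1 was above (4010 of 11611) and 1 below (3839 of 11611). Of the members given in full, 3 changed the sign of a small mean difference under another scaling or trend removal. Cep290 became -0.011 with quantile normalization, -0.099 with the length and GC trend removed, -0.081 with the length trend removed, -0.021 with the GC trend removed and -0.13 with the longest transcript. Cep55 became -0.021 with quantile normalization, -0.058 with both trends removed, -0.073 with the GC trend removed and -0.034 with the longest transcript. Cep63 became -0.0053 with the longest transcript. Of the other members, Cep192, Cep135 and Cep95 became -0.11, -0.025 and -0.0029 with the length and GC trend removed. These causes were not tested. No paired analysis was possible because there was 1 control library. Low read numbers limit Cep170b, Cep72, Cep97 and Cep131 most.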

Other observations

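Noncoding transcripts named after CEP genes did not always go with their hosts. Cep112it, annotated as sense intronic within Cep112 (chromosome 11, 108820333 to 108826942, GRCm38), had 412, 466 and 461 normalized counts, whereas Cep112 itself had 0, 0 and 0.97. Cep83os, annotated as sharing a bidirectional promoter with Cep83, had 103, 114 and 175, log2 differences of 0.15 (shRNA 1) and 0.76 (shRNA 2), where Cep83 had 0.24 and 0.33. Cep112os1, annotated as antisense, was listed at 0 throughout. So was Cep295nl, which is annotated as protein coding but whose name left it out of the family. All of these genes were picked with their values in view. Their differences have no test beyond the fit over all features. In that fit Cep83os had an adjusted p of 0.84 in limma and Cep112it one of 0.87.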
